A study of Homo sapiens with 4 samples.

Results

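The protocadherin alpha and gamma gene clusters lie on chromosome 5 and were described here by the DNA methylation of their CpG sites. The alpha cluster was taken as 140.16 to 140.395 Mb and the gamma cluster as 140.705 to 140.895 Mb of hg19, each from its variable exons to its constant exons. A cytosine was a member if it had at least 10 reads in every library, which gave 1490 of the 411226 cytosines that met this minimum, 684 in alpha and 806 in gamma. The members were thus chosen by position and read number, but the clusters were picked for description with their levels in these libraries already known, so their levels are given as descriptions.

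The libraries came from the human embryonic stem cell line H9, which is established and widely used, by bisulfite sequencing of captured genomic DNA, which reads methylated cytosines as C and unmethylated ones as T. There were 4 groups of 1 library each. KO naive was H9 with the B3GALT5-/- genotype in 2iLAF medium, WT naive was wild-type H9 in 5iLAF medium, KO primed was B3GALT5-/- H9 in basal medium and WT primed was wild-type H9 in basal medium. B3GALT5 encodes a galactosyltransferase of glycosphingolipid synthesis, and naive and primed are culture states of human embryonic stem cells modelled on the earlier and later epiblast. The naive libraries differ in both genotype and medium, so these cannot be told apart between them, and the labels do not say how many clones the knockout was taken from. Methylation does not show whether B3GALT5 was lost. With 1 library per group no difference has a replicate check.

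Clustered protocadherins are cell adhesion proteins of neurons. Each variable exon of the alpha and gamma clusters has its own promoter, encodes the extracellular domains, the membrane span and the start of the tail of its own isoform, and is spliced to constant exons that encode the rest of the tail for the whole cluster. A neuron uses a small, largely random subset of the alternate variable exons (PCDHA1 to PCDHA13, the PCDHGA and the PCDHGB genes), while the C-type exons at the end of each array (PCDHAC1, PCDHAC2 and PCDHGC3 to PCDHGC5) are used more evenly. A conserved element before most of these starts binds the insulator protein CTCF, and methylation of these promoters goes with silence; in mouse the de novo methyltransferase Dnmt3b methylates them in the early embryo.

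The sequence before 7 of these starts is shown to place the genes that the results turn on. These include a pair of alpha genes with different levels in primed cells near their starts, mostly after them (PCDHA6 and PCDHA7). The others are the starts whose genes differed between the genotypes (PCDHA10 and PCDHGA10), a gamma A and a gamma B start with different CpG numbers (PCDHGA5 and PCDHGB5), and the C-type start PCDHGC3. Each is the 250 bases before the RefSeq transcript start, on the plus strand, from the RefSeq promoter table of GRCh38.p14, with the letters of every CpG in capitals. In that build they are chr5:140827710-140827959 (PCDHA6), chr5:140834019-140834268 (PCDHA7), chr5:140855647-140855896 (PCDHA10), chr5:141363912-141364161 (PCDHGA5), chr5:141397697-141397946 (PCDHGB5), chr5:141412737-141412986 (PCDHGA10) and chr5:141475716-141475965 (PCDHGC3).
PCDHA6: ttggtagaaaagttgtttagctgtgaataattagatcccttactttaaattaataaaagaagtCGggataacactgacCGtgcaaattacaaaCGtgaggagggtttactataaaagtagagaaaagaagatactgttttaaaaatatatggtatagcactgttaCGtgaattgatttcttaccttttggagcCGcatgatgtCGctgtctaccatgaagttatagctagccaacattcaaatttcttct
PCDHA7: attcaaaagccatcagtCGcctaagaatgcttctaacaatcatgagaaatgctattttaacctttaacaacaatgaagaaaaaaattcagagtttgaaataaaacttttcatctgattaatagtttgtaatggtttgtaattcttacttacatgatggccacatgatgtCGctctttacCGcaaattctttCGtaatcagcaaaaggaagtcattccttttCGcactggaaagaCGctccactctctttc
PCDHA10: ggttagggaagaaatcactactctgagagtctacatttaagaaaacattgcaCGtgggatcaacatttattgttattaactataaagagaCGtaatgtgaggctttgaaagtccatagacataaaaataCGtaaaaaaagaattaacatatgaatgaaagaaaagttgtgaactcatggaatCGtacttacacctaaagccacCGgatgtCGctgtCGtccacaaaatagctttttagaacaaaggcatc
PCDHGA5: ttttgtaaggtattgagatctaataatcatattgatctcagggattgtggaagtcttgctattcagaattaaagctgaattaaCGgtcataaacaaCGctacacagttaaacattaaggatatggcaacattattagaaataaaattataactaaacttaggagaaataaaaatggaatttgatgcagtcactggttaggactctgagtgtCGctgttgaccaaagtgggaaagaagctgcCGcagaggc
PCDHGB5: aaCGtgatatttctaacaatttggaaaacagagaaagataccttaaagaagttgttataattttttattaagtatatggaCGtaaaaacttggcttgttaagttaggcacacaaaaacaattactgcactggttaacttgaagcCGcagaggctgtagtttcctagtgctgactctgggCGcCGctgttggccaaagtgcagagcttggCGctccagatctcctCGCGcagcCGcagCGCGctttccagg
PCDHGA10: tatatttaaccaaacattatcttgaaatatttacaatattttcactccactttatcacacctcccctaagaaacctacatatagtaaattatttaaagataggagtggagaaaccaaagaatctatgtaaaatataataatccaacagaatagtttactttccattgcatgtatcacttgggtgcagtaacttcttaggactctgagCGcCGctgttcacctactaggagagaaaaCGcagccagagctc
PCDHGC3: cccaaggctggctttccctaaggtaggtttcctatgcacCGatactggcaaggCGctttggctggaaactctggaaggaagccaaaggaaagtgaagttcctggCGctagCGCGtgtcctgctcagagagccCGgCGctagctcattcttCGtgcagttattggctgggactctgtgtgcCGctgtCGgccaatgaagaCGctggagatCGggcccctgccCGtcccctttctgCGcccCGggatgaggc
The stretches hold 6 CpGs before PCDHA6 and PCDHA7, 7 before PCDHA10, 4 before PCDHGA5, 11 before PCDHGB5, 3 before PCDHGA10 and 15 before PCDHGC3. The letters CGCT, within the conserved element, stand near the start in each of them. The stretches before PCDHA10 and PCDHGA10 hold no member cytosine, and the values of these genes given further on come from cytosines after the start.

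A gene was tied to the hg19 positions of the files by the spacing of the CpGs in its RefSeq promoter, which had to match the listed CpG positions at a single place in the cluster. Of 37 genes in the list, 33 had a RefSeq window of 300 bases, and 27 were placed in this way, 9 in alpha and 18 in gamma. All 27 fell in their own cluster and in the RefSeq order, and 266 of the 306 CpGs in their windows were listed in the files. PCDHA1, PCDHA5, PCDHA9, PCDHAC1, PCDHGA4 and PCDHGB7 could not be placed.

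The libraries listed 2340330, 2018895, 2204054 and 2109788 cytosines with 40697882, 23916547, 28450230 and 24570785 reads in KO naive, WT naive, KO primed and WT primed. The files held no row without a methylated read, so a member needed a methylated read in each library and low levels are raised by this selection. Members had medians of 35, 24, 23 and 20 reads in alpha and 31, 21, 20 and 18 in gamma in the same order, and 99.7% of the alpha and 99.1% of the gamma members were on the minus strand. In the 2 clusters 3098 and 2841 cytosines were listed in at least 1 library, so the members are a minority of the listed cytosines. The 176 cytosines whose lowest library had 10 reads averaged 56.2%, 49.1%, 89.8% and 90.2%, and the 164 with 9 reads in their lowest library, just outside, averaged 59.4%, 48.5%, 92.3% and 89.7%.

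Both clusters were densely methylated in primed cells and far less so in naive cells. Alpha cytosines averaged 42.2% in KO naive and 38.9% in WT naive, against 78.7% in KO primed and 79.6% in WT primed, with SDs over cytosines of 25.6, 27.3, 26.6 and 27.1 points. Gamma cytosines averaged 53.2% in KO naive and 47.4% in WT naive, against 88.1% in KO primed and 87.5% in WT primed, with SDs of 24.8, 24.0, 20.3 and 18.9 points. Gamma thus stood above alpha in every library. Counting error on these means was at most 0.694 points (half-width of the 95% interval, reads taken as independent).

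Levels of the naive libraries spread over the whole range, whereas most primed cytosines were close to full methylation. In alpha 2.92% of the cytosines in KO naive and 4.82% in WT naive were at 90% or above, against 52.6% in KO primed and 58.9% in WT primed. In gamma these shares were 4.71% in KO naive and 5.21% in WT naive, against 69.9% in KO primed and 66.9% in WT primed. Levels of at most 20% made up 25.6% of the alpha cytosines in KO naive and 32.6% in WT naive, against 3.65% in KO primed and 2.63% in WT primed. In gamma the same low class held 13.5% in KO naive and 15.3% in WT naive, against 2.36% in KO primed and 0.62% in WT primed.

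**Figure D1:**
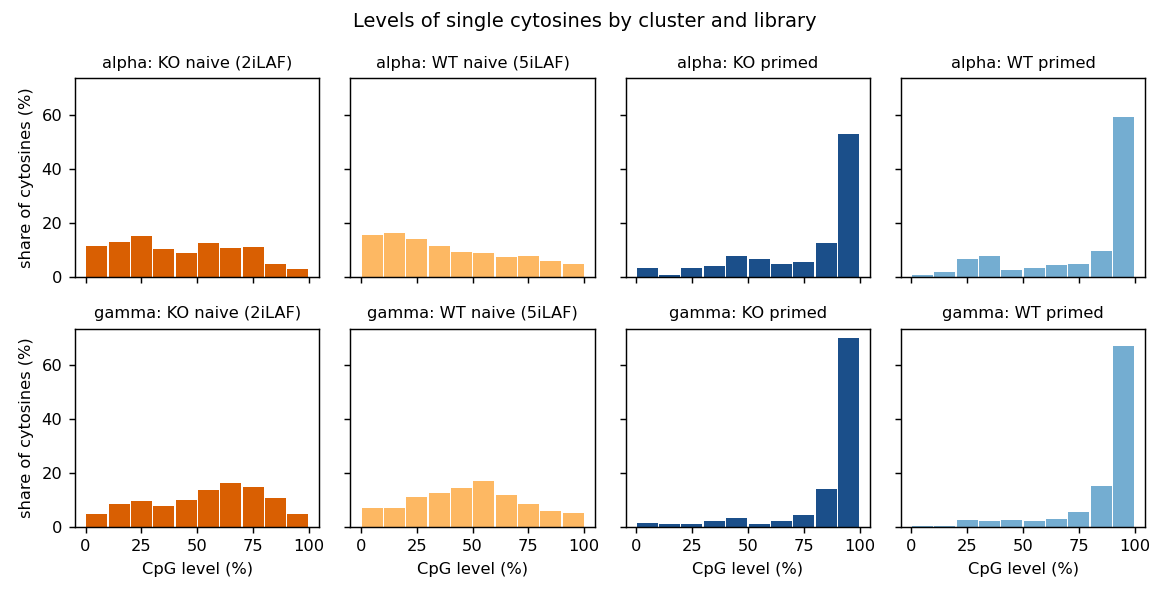
Share of member cytosines (y axis, %) in each 10-point class of CpG methylation level (x axis, %), for the alpha cluster (684 cytosines, top) and the gamma cluster (806, bottom) in the 4 libraries. The class of 90% and above is the tallest bar in each primed panel, while the naive panels spread over all classes.

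The naive libraries were lower than the primed ones by more in these clusters than over the autosomes. KO naive minus KO primed was -36.5 points in alpha and -34.9 points in gamma, beside -21.9 points over 396398 autosomal cytosines. WT naive minus WT primed was -40.6 points in alpha and -40.1 points in gamma, beside -22.6 points over the autosomes. In alpha 662 of 684 cytosines (96.8%) were lower in KO naive than in KO primed and 656 (95.9%) lower in WT naive than in WT primed. In gamma these were 771 (95.7%) and 744 (92.3%) of 806. Most autosomal cytosines were also lower, 86.1% in KO naive and 80.7% in WT naive. The KO and the WT pair are given side by side with no test between conditions, and since the clusters were picked with these levels known, the gap to the autosomes supports nothing further.

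Each cytosine's methylated and unmethylated reads were compared by Fisher's exact test (two-sided) and the cytosine called at a Benjamini-Hochberg adjusted p under 0.05 over all 411226 cytosines and a difference of at least 25 points. By this measure 398 alpha and 414 gamma cytosines were lower in KO naive than in KO primed, where 27.4% of all cytosines were called. Of the WT pair, 385 alpha and 467 gamma cytosines were lower in WT naive, with 26.7% of all cytosines called. None was higher in KO naive (0.392% of all), and 1 in each cluster was higher in WT naive (0.828% of all). These tests compare libraries, take reads as independent and use the contrast the clusters are known for. With the read counts divided by the variance between the strands of a CpG, 5 alpha and 3 gamma cytosines were called lower in KO naive and 5 and 4 in WT naive.

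Averaged in 1 kb tiles of at least 5 cytosines, the clusters gave 38 tiles in alpha and 40 in gamma. Tile medians in alpha were 39.6% in KO naive and 38.7% in WT naive, against 90.1% in KO primed and 92.8% in WT primed. In gamma they were 57.0% in KO naive and 48.0% in WT naive, against 93.5% in KO primed and 91.7% in WT primed. A tile was called by size alone, with no p-value, where it had a mean difference of at least 25 points with at least 80% of its cytosines moving that way. By this rule 30 of 38 alpha and 29 of 40 gamma tiles were lower in KO naive than in KO primed (34.2% of all 20581 tiles), and 29 of 38 and 32 of 40 were lower in WT naive than in WT primed (37.4% of all tiles). None was called higher in a naive library (0.214% and 0.51% of all tiles in the KO and the WT pair). The median tile difference was -35.7 and -34.2 points in alpha and gamma for the KO pair, beside -19.3 points over all tiles, and -36.5 and -42.8 points for the WT pair, beside -20.1 points.

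The largest called decrease in alpha of the KO pair was at chr5:140214001-140215000, just downstream of the PCDHA7 start. Its 25 cytosines averaged 25.8% in KO naive and 23.5% in WT naive, against 93.8% in KO primed and 96.3% in WT primed. In gamma it was at chr5:140795001-140796000, with 11.9% in KO naive and 22.2% in WT naive, against 91.3% in KO primed and 89.7% in WT primed over 5 cytosines. For the WT pair the largest in alpha was chr5:140264001-140265000, with 33.6% in KO naive and 8.27% in WT naive, against 95.3% in KO primed and 100% in WT primed over 5 cytosines. Each of these had 1 methylated read of 11 to 14 in WT naive and 11 to 12 reads in WT primed. They may share reads and are not separate measurements. In gamma the largest was chr5:140723001-140724000. The PCDHGA3 start lies in this gamma tile, which averaged 30.7% in KO naive and 16.9% in WT naive, against 90.5% in KO primed and 91.9% in WT primed over 27 cytosines. The tiles with the highest mean over the 4 libraries were chr5:140188001-140189000 in alpha, with 72.5% in KO naive and 80.3% in WT naive, and chr5:140779001-140780000 in gamma, downstream of PCDHGB5, with 75.0% in KO naive and 73.96% in WT naive; both were above 94% in each primed library.

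**Figure D2:**
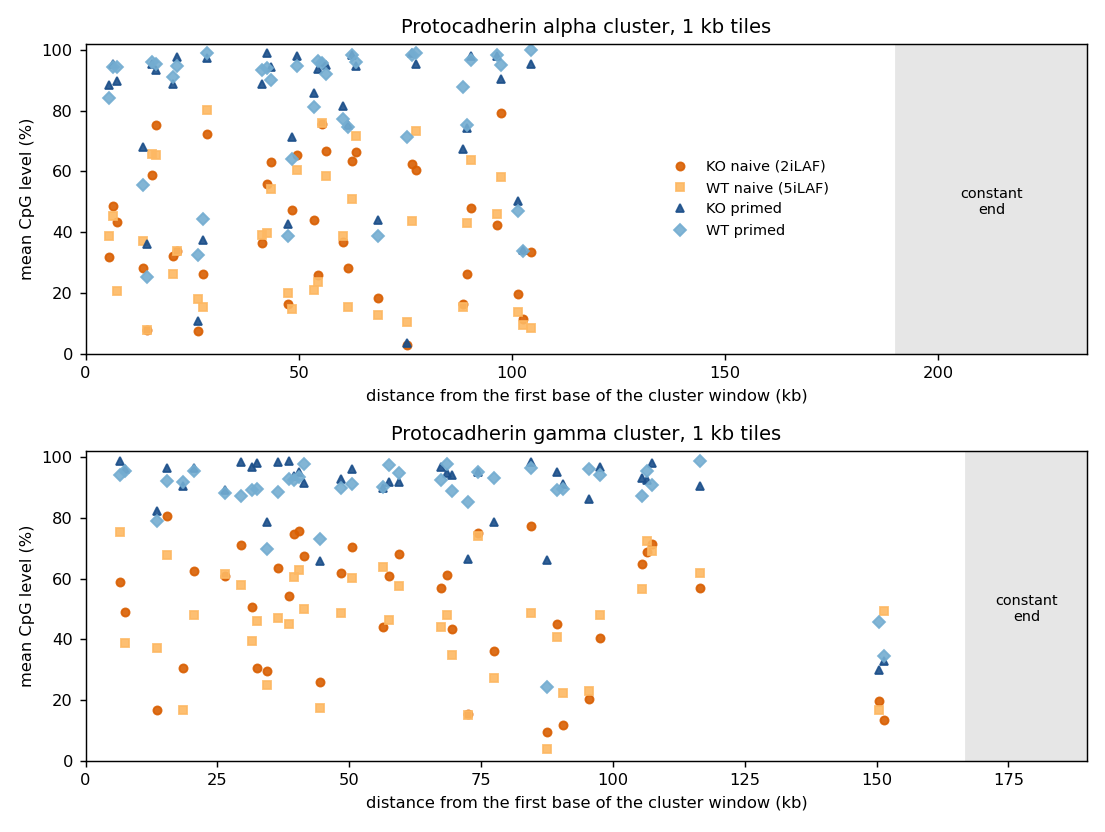
Mean CpG methylation level (y axis, %) of each 1 kb tile with at least 5 member cytosines against its distance from the first base of the cluster window (x axis, kb), alpha above and gamma below, with a symbol for each library. Primed symbols lie mostly above 80% and naive symbols spread from below 10% to about 80%; no tile falls in the shaded constant end.

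The comparison of variable and constant ends could not be made by tile, because the constant ends held almost no members. The constant end was taken from 140.35 Mb in alpha and from 140.872 Mb in gamma, round positions set from general knowledge of the exon order. It held 1 of the 684 alpha and 5 of the 806 gamma members, and no tile of at least 5 cytosines, also at the 5 read minimum, with filling in, or with the boundary moved by 10 kb either way. Taking every tile with at least 1 cytosine, 3 constant gamma tiles averaged 50.4% in KO naive and 52.2% in WT naive, against 45.4% in KO primed and 36.3% in WT primed, beside 45.6%, 43.4%, 83.2% and 83.3% over 62 variable tiles in that order.

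The 5 gamma cytosines of the constant end fell into separate levels. The 3 between positions 140873083 and 140873135 had 76 to 92% in KO naive and 44.4 to 88.9% in WT naive, against 80 to 95.2% in KO primed and 80 to 95.2% in WT primed. The cytosine at 140888842 had 22.7% in KO naive and 60% in WT naive, against 5% in KO primed and 3.45% in WT primed, from 5 of 22, 6 of 10, 1 of 20 and 1 of 29 reads. Its Wilson 95% intervals were 10.1 to 43.4% in KO naive and 31.3 to 83.2% in WT naive, against 0.89 to 23.6% in KO primed and 0.61 to 17.2% in WT primed. The last, at 140893720, had 43.8% in KO naive and 25% in WT naive, against 41.2% in KO primed and 17.6% in WT primed. The single alpha cytosine of the constant end, at 140358238, had 55% in KO naive and 75% in WT naive, against 100% in both primed libraries.

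Within the variable arrays, cytosines around the transcript starts were less methylated than cytosines further into the gene. Windows of 250 bp before to 1000 bp after the start (near) and of 1000 to 3000 bp after it (far), set after the levels had been seen, each held at least 3 members in 18 genes. The near mean was below the far mean in 17 of 18 genes in KO naive, 17 in WT naive, 16 in KO primed and 14 in WT primed. The median near level over these genes was 16.9% in KO naive and 19.9% in WT naive, against 72.6% in KO primed and 82.3% in WT primed. The median far level was 65.5% in KO naive and 61.0% in WT naive, against 95.9% in KO primed and 94.9% in WT primed. PCDHGA8 was the gene with the reverse order in all 4 libraries, with near and far means of 59.5% and 45.6% in KO naive and 94.1% and 90.4% in WT primed.

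The families had different levels near their starts. The 188 near cytosines of 7 alternate alpha genes averaged 18.5% in KO naive and 17.7% in WT naive, against 56.6% in KO primed and 59.5% in WT primed. The 186 near cytosines of the gamma A genes averaged 46.8% in KO naive and 37.6% in WT naive, against 90.2% in KO primed and 89.7% in WT primed. The 28 near cytosines of the gamma B genes averaged 13.7% in KO naive and 16.1% in WT naive, against 63.7% in KO primed and 77.3% in WT primed. Gamma A starts were thus closer to their far windows, which averaged 60.2% in KO naive and 52.7% in WT naive, against 95.3% in KO primed and 92.9% in WT primed over 355 cytosines. The far windows of the alpha genes averaged 64.2% in KO naive and 61.9% in WT naive, against 96.0% in KO primed and 96.4% in WT primed over 255 cytosines. For the gamma B genes they averaged 72.4% in KO naive and 60.9% in WT naive, against 95.6% in KO primed and 93.9% in WT primed over 62 cytosines.

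**Figure D3:**
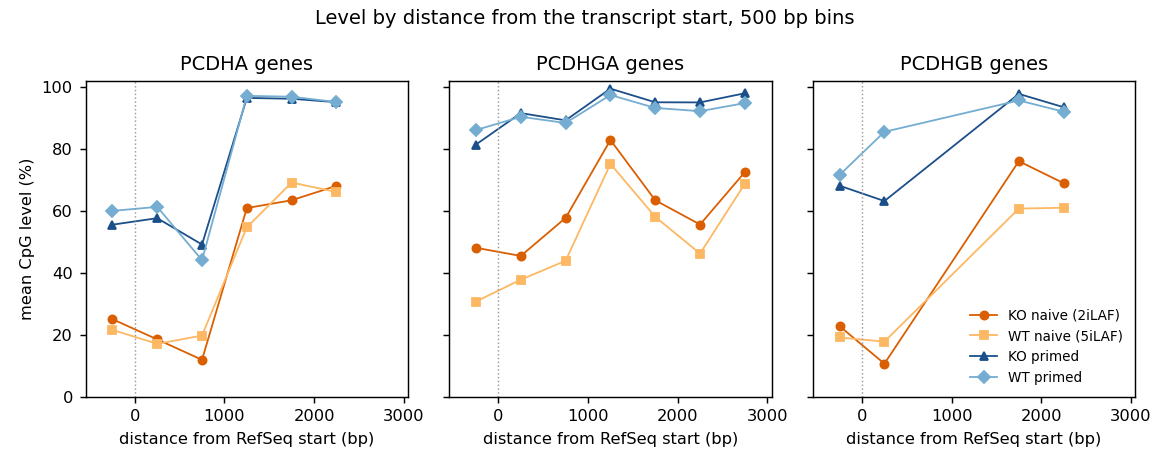
Mean methylation level (y axis, %) of member cytosines in 500 bp bins by distance from the RefSeq transcript start (x axis, bp), for alternate alpha, gamma A and gamma B genes, with a line for each library and bins without members left out. In the alpha panel the primed libraries are at 44.1 to 61.3% up to 1000 bp and above 95% beyond it, and the naive libraries step up at the same distance.

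The alternate alpha genes had unequal levels near their starts in primed cells. PCDHA4 had a near mean over 16 cytosines of 7.14% in KO naive and 15.5% in WT naive, against 13.7% in KO primed and 28.6% in WT primed. PCDHA2 averaged 7.65% in KO naive and 7.80% in WT naive, against 36.2% in KO primed and 25.4% in WT primed over 26 cytosines. Both were thus well below full methylation in primed cells. PCDHA6 averaged 17.0% in KO naive and 19.5% in WT naive, against 44.9% in KO primed and 38.1% in WT primed over 42 cytosines. PCDHA7 averaged 30.6% in KO naive and 22.8% in WT naive, against 91.7% in KO primed and 92.3% in WT primed over 34 cytosines. The gap between PCDHA6 and PCDHA7 was thus more than 45 points in both primed libraries, and the far windows of both were above 94% there. PCDHA8 lay between them, with 30.02% in KO naive and 20.4% in WT naive, against 76.6% in KO primed and 75.3% in WT primed over 33 cytosines. PCDHA11 had 12.9% in KO naive and 17.7% in WT naive, against 62.3% in KO primed and 78.2% in WT primed over 31 cytosines.

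In the printed stretches and the 50 bases after them, PCDHA7 was again above PCDHA6 in primed cells, but by less in WT primed than in the near windows. The SDs in WT primed were 6.70 points for PCDHA6 and 23.8 for PCDHA7, and the WT naive means were nearly equal. The 8 members of the PCDHA6 window averaged 18.4% in KO naive and 18.6% in WT naive, against 37.6% in KO primed and 62.8% in WT primed. The 6 members of the PCDHA7 window averaged 38.4% in KO naive and 18.8% in WT naive, against 82.9% in KO primed and 74.6% in WT primed. PCDHA6 differed by genotype here in the opposite direction to its wider near window, so its order between KO primed and WT primed depended on the window. The 3 members of the PCDHA8 window had SDs of up to 43 points and are given as a mean of 18.0% in KO naive and 33.2% in WT naive, against 74.2% in KO primed and 70.4% in WT primed.

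The gamma A starts differed in primed cells. PCDHGA5, whose printed stretch holds few CpGs, averaged 52.5% in KO naive and 36.9% in WT naive, against 98.0% in KO primed and 91.8% in WT primed over the 6 members of its start window. PCDHGA7 averaged 70.3% in KO naive and 32.6% in WT naive, against 89.1% in KO primed and 92.7% in WT primed over 4 members. PCDHGA8 averaged 47.6% in KO naive and 38.1% in WT naive, against 96.6% in KO primed and 88.0% in WT primed over 5 members. The PCDHGA9 window had 36.2% in KO naive and 27.3% in WT naive, against 78.8% in KO primed and 93.3% in WT primed over 5 members. All 4 were thus higher in KO naive than in WT naive. The 2 members in the PCDHGA3 window had 10.3% in KO naive and 5.63% in WT naive, against 43.6% in KO primed and 36.7% in WT primed, well below the mean of the tile around them. The 2 members in the PCDHGA1 window had 33.3% in KO naive and 35.3% in WT naive, against 49.6% in KO primed and 96.2% in WT primed. The 9 members in the near window of PCDHGA10 averaged 8.93% in KO naive and 7.26% in WT naive, against 60.2% in KO primed and 23.1% in WT primed. The wider near windows of PCDHGA6 and PCDHGA2 differed in naive cells, with 62.0% in KO naive and 48.7% in WT naive over 20 cytosines of PCDHGA6, and 16.7% in KO naive and 37.0% in WT naive over 6 cytosines of PCDHGA2. In primed cells PCDHGA6 had 92.9% in KO primed and 89.98% in WT primed, and PCDHGA2 had 82.1% in KO primed and 79.2% in WT primed. The near window of PCDHGA11 had 18.9% in KO naive and 25.8% in WT naive, against 88.8% in KO primed and 96.2% in WT primed over 21 cytosines, so a gamma A start could also be low in naive and high in primed cells.

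Gamma B genes with at least 3 members near their starts were low there in naive cells and intermediate to high in primed cells. PCDHGB5 averaged 17.9% in KO naive and 14.2% in WT naive, against 62.6% in KO primed and 88.8% in WT primed over the 10 members of its start window. PCDHGB2 averaged 14.9% in KO naive and 11.3% in WT naive, against 67.8% in KO primed and 61.5% in WT primed over 4 members. The near window of PCDHGB1 had 8.15% in KO naive and 20.4% in WT naive, against 68.6% in KO primed and 88.9% in WT primed over 4 cytosines. Fewer members were near the other starts. PCDHGB4 averaged 8.72% in KO naive and 6.48% in WT naive, against 35% in KO primed and 44.1% in WT primed over 2. The 1 cytosine of PCDHGB3 had 11.5% and 8.33%, against 60% and 86.7%, in that order. The 1 cytosine of PCDHGB6 had 15.8% in KO naive and 47.1% in KO primed, but 60% in WT naive and 23.1% in WT primed. The promoter windows of PCDHGB4 and PCDHGB5 were identical at 75.1% of aligned bases, and how reads were placed between these genes was not tested.

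The C-type gene PCDHGC3, far from the alternate exons, was low to intermediate in every library. The 18 members of its start window averaged 19.6% in KO naive and 18.8% in WT naive, against 39.6% in KO primed and 40.5% in WT primed, with SDs of 7.13, 15.9, 12.5 and 4.84 points. Members 210 to 10 bp before the start were close in primed cells, at 36.4 to 52.5% in KO primed and 34.4 to 46.7% in WT primed. Those 50 to 125 bp after it had 6.67 to 12.5% in KO primed and 45 to 60.7% in WT primed. At 677 to 708 bp the order was reversed, with 35.7 to 37.0% in KO primed and 21.4 to 28.6% in WT primed. These stretches were picked after their values were seen, and neighbouring cytosines share reads. Over the PCDHGC3 near window of 49 cytosines the means were 17.3% in KO naive and 29.5% in WT naive, against 31.4% in KO primed and 41.3% in WT primed. The tile at chr5:140856001-140857000 was the 1 tile of either cluster with a higher mean in WT naive than in WT primed. Its 19 cytosines lie 586 to 730 bp after the PCDHGC3 start and are part of this near window. They averaged 13.5% in KO naive and 49.4% in WT naive, against 32.997% in KO primed and 34.5% in WT primed. WT naive was thus 14.9 points above WT primed, while KO naive was 19.5 points below KO primed. Neighbouring cytosines of this tile may share reads, with 10 to 21 reads each in WT naive and 10 to 18 in WT primed. The middle part of gamma, 140.82 to 140.872 Mb, which held this gene, averaged 24.9% in KO naive and 34.9% in WT naive, against 41.6% in KO primed and 51.3% in WT primed over 65 cytosines, beside 55.7%, 48.5%, 92.4% and 90.9% over the 736 cytosines of the alternate array.

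The letters CGCT, taken as the core of the conserved element, were found on either strand in 37 of the 38 RefSeq windows of these genes (97.4%), beside 70.0% of 35116 windows of all genes. On the gene's strand at 90 to 30 bases before the start they were found in 30 of 38 (78.9%), beside 19.1% of all windows. No other motif was searched. Methylation of the CpG in these letters could be read at 11 member cytosines, which leave out those without a methylated read in some library. Their median was 23.8% in KO naive and 16.2% in WT naive, against 47.8% in KO primed and 55.6% in WT primed, and they ranged from 4 to 75.8% in KO naive and from 7.41 to 46.2% in WT naive, against 33.3 to 96.7% in KO primed and 4.76 to 100% in WT primed. At PCDHA7 this cytosine had 40.5% in KO naive and 16.2% in WT naive, against 90% in KO primed and 85.7% in WT primed. At PCDHA2 it had 10.3% in KO naive and 23.5% in WT naive, against 47.8% in KO primed and 4.76% in WT primed, from 3 of 29, 4 of 17, 11 of 23 and 1 of 21 reads. Some cytosines of these letters outside the members, named after their values were seen, were below the members' lowest KO primed level. PCDHGA10 had 1 methylated of 26 reads in KO primed and 3 of 23 in WT primed, and PCDHA4 had 2 of 36 in KO primed and 8 of 33 in WT primed. At PCDHGB4 the CpG 65 bases before the start had 3 of 28 reads in KO primed and 1 of 27 in WT primed on the minus strand. On its plus strand KO primed had 5 of 7. PCDHA10 had 1 of 28 in WT primed and was unlisted in the other 3 libraries. Others outside the members were high in primed cells. At PCDHGB5 the CpG 68 bases before the start had 25 of 31 reads in KO primed and 21 of 26 in WT primed on the minus strand. PCDHA11 had 6 of 8 in KO primed and 17 of 17 in WT primed, and PCDHGB3 had 7 of 8 and 13 of 13.

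The genotypes were close to each other in primed cells over each cluster as a whole. KO primed minus WT primed was -0.885 points in alpha, where counting error gave 0.661 points either way, and 0.604 points in gamma, where it gave 0.591 points. These widths take cytosines as independent, while neighbouring cytosines share reads, so they are too narrow to set either difference apart from 0. Of the cytosines, 13 alpha and 8 gamma ones were called lower in KO primed (0.323% of all) and 1 and 5 called higher (0.603% of all). By the rule of size 1 alpha tile was lower (0.69% of all tiles) and 1 gamma tile higher (1.31% of all tiles). Both small cluster differences changed sign under another read minimum, to 1.08 points in alpha with at least 20 reads and -0.0859 points in gamma with at least 5. With read counts divided by the strand variance, no cytosine of either cluster was called, and 4 alpha and 3 gamma cytosines had an unadjusted p under 0.05.

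**Figure D4:**
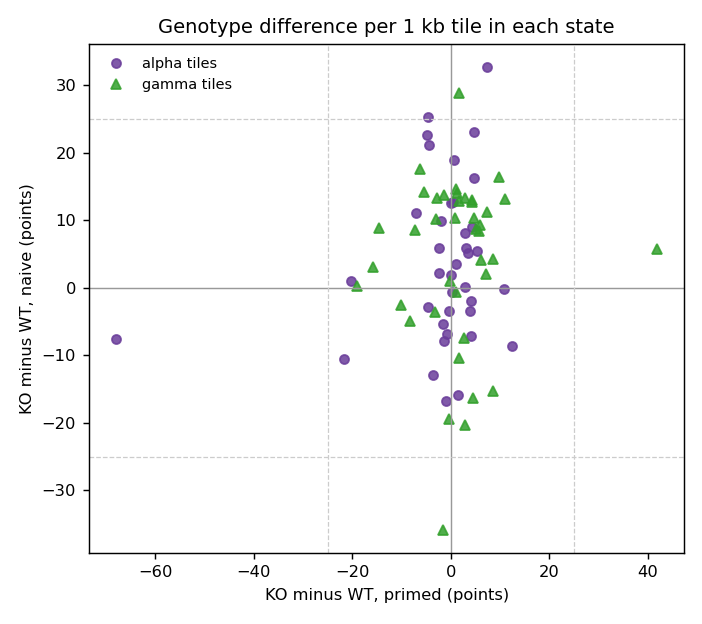
KO minus WT difference in mean level (points) of each 1 kb tile, in naive cells (y axis) against primed cells (x axis), for 38 alpha and 40 gamma tiles; dashed lines mark 25 points. Most tiles lie within 20 points of 0 on the primed axis, with an alpha tile at -68.0 and a gamma tile at 42.0 points apart from the rest.

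The alpha tile lay in PCDHA10, at chr5:140235001-140236000, with its members 342 to 476 bp after the start and thus downstream of the printed stretch. Its 6 cytosines averaged 2.93% in KO naive and 10.4% in WT naive, against 3.50% in KO primed and 71.5% in WT primed, so KO primed was as low as the naive libraries and WT primed stood apart. At position 140235923 the methylated reads were 3 of 91 in KO naive and 3 of 34 in WT naive, against 1 of 35 in KO primed and 12 of 14 in WT primed. That is 2.86% in KO primed and 85.7% in WT primed, with Wilson 95% intervals of 0.51 to 14.5% and 60.1 to 96.0%, and an adjusted p of 2.42e-05 by Fisher's exact test. Adjusted p over the 6 cytosines ran from 2.42e-05 to 0.0123. WT primed had 12 methylated of 14 reads at each of 140235919, 140235923 and 140235928, so these share reads and the 6 are not separate measurements. With cytosines that were unlisted in a library filled in as unmethylated at the coverage of a listed neighbour, the tile held 22 cytosines and averaged 2.47% in KO naive and 6.10% in WT naive, against 2.20% in KO primed and 56.6% in WT primed. Its far window was methylated in both primed libraries, with 96.3% in KO primed and 98.9% in WT primed. Before the start, the cytosine of the letters CGCT had 1 methylated of 28 reads in WT primed. It was unlisted in KO primed, so the genotypes could not be compared there.

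PCDHA10 was not alone in being lower in KO primed near its start, but the other alpha differences were smaller. The PCDHA4 tile at chr5:140186001-140187000 averaged 7.56% in KO naive and 18.1% in WT naive, against 10.8% in KO primed and 32.5% in WT primed over 10 cytosines. The PCDHA11 tile at chr5:140248001-140249000 averaged 16.2% in KO naive and 15.3% in WT naive, against 67.3% in KO primed and 87.7% in WT primed over 22 cytosines. Neither passed the rule of size. The PCDHA2 tile at chr5:140174001-140175000 went the other way, with 36.2% in KO primed and 25.4% in WT primed over 26 cytosines, also under the rule.

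The gamma tile lay in PCDHGA10, at chr5:140792001-140793000, with its members 370 to 439 bp after the start. Its 6 cytosines averaged 9.44% in KO naive and 3.72% in WT naive, against 66.3% in KO primed and 24.3% in WT primed. KO primed was thus the high library of the 4. The cytosines lie between positions 140792924 and 140792993 and WT primed had 11 methylated reads at every cytosine, of 43 to 49 reads, so they share reads and are not separate measurements. At 140792934 there were 6 of 49 methylated reads in KO naive and 1 of 29 in WT naive, against 25 of 36 in KO primed and 11 of 49 in WT primed. The levels there were 69.4% in KO primed and 22.4% in WT primed, with Wilson 95% intervals of 53.1 to 82.0% and 13.02 to 35.9%, and an adjusted p of 0.00722 by Fisher's exact test. Adjusted p over the 6 cytosines ran from 0.00722 to 0.101, so the same reads gave calls at some positions and not at others. Before the PCDHGA10 start, the cytosine of the letters CGCT was low in both, with 1 methylated of 26 reads in KO primed and 3 of 23 in WT primed. In gamma the largest tile decreases in KO primed were at PCDHGB5, with 66.3% in KO primed and 85.4% in WT primed over 16 cytosines of chr5:140777001-140778000, and at PCDHGC3, with 29.9% in KO primed and 45.7% in WT primed over 31 cytosines of chr5:140855001-140856000. Neither passed the rule.

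**Figure D5:**
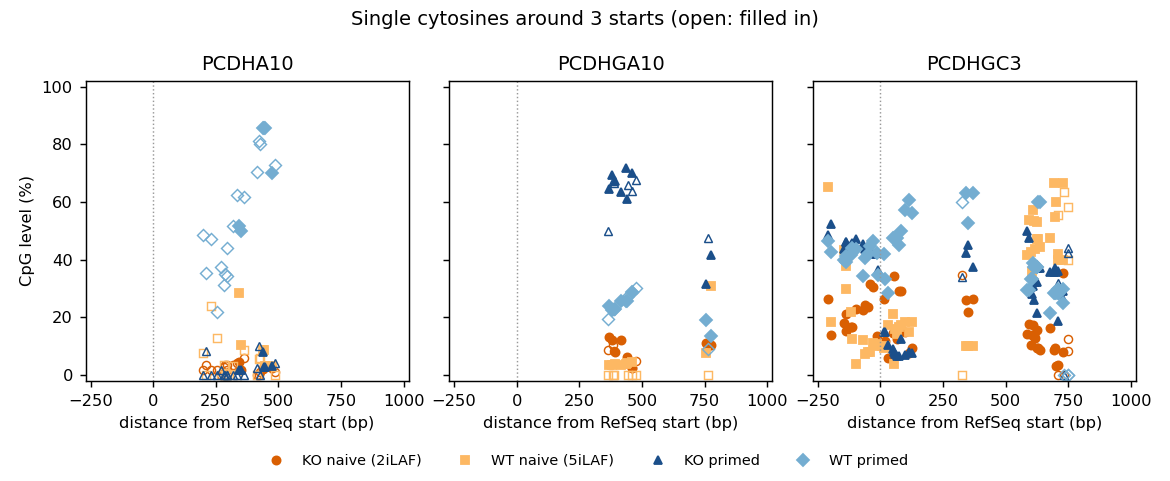
Methylation level (y axis, %) of single cytosines by distance from the RefSeq start (x axis, bp) in PCDHA10, PCDHGA10 and PCDHGC3, with a symbol for each library. Closed symbols are members. Open symbols are cytosines that some library did not list. That library is filled in as unmethylated there, and the libraries that listed the cytosine are at their measured level. WT primed stands apart from the other 3 libraries in PCDHA10, KO primed stands above them in PCDHGA10, and WT naive lies mostly above the others beyond 500 bp in PCDHGC3.

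In naive cells KO was above WT over both clusters. KO naive minus WT naive was 3.25 points in alpha and 5.80 points in gamma, beside 1.67 points over the autosomes. The 95% intervals from counting, with cytosines taken as independent, were 0.88 and 0.895 points either way. Which cluster had the larger difference depended on the setting, with 5.94 points in alpha and 5.55 in gamma at a minimum of 5 reads. KO naive was the higher library at 374 of 684 alpha and 500 of 806 gamma cytosines, beside 206606 of 396398 over the autosomes. It was the lower one at 45.0% of alpha, 37.2% of gamma and 46.7% of autosomal cytosines, so alpha was close to the autosomes here. By tile, KO naive was higher at 22 of 38 in alpha and 29 of 40 in gamma, beside 11362 of all 20581 tiles. Single calls were few, with 12 alpha and 8 gamma cytosines higher in KO naive (0.911% of all) and 3 and 7 lower (0.527% of all). By the rule of size 1 tile of each cluster was higher (2.56% of all tiles) and 1 gamma tile lower (1.29% of all tiles). With read counts divided by the strand variance no cytosine was called, and 8 alpha and 5 gamma cytosines had an unadjusted p under 0.05.

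The alpha tile that passed was chr5:140264001-140265000, with 33.6% in KO naive and 8.27% in WT naive over 5 cytosines. In WT naive each of these had 1 methylated read of 11 to 14, the fewest a member can have. They may share reads and are not separate measurements. A mean difference at chr5:140208001-140209000, downstream of the PCDHA6 start, with 47.4% in KO naive and 14.7% in WT naive over 16 cytosines, did not pass, since under 80% of its cytosines moved that way; the SD in KO naive was 34.9 points, and the difference of 32.7 points became 18.4 weighted by reads and 8.52 with at least 20 reads, over 5 cytosines. The gamma tile that passed, at chr5:140789001-140790000, far downstream of the PCDHGB6 start, averaged 77.4% in KO naive and 48.5% in WT naive over 20 cytosines. Both primed libraries were above 96% there. The tile that was lower in KO naive was the one within the near window of PCDHGC3, with 13.5% in KO naive and 49.4% in WT naive. At the alternate gamma starts, PCDHGA7 had the widest gap of the described windows, 70.3% in KO naive and 32.6% in WT naive, from 28 to 33 reads and 11 to 13 reads per cytosine.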

How the data were processed

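Bisulfite libraries were prepared with the TruSeq Methyl Capture EPIC kit, with a conversion of 99% from spiked-in lambda phage DNA, per the labels' protocols. Positions are in hg19 (GRCh37), per the submitters' processing notes; which aligner and caller were used, and what was done with duplicates, is not given in the sources used here. For each library the authors deposited a table per cytosine and strand with read counts (context and methylated coverage) and a methylation level as a fraction, per the file headers. Depth ranged from 2018895 listed cytosines with 23916547 reads in WT naive to 2340330 with 40697882 in KO naive.

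From the counts, levels were computed as methylated over context coverage in percent, with equal weight per cytosine, for the cytosines with at least 10 reads in all 4 libraries, chromosome Y left out and strands kept apart. Tiles of 1 kb needed at least 5 cytosines. Fisher's exact tests were two-sided, with Benjamini-Hochberg adjustment over all 411226 cytosines, and were tested on simulated data; they compare libraries, not conditions. Intervals are Wilson 95% intervals or normal 95% half-widths and cover counting error only. The half-widths take cytosines as independent. Positions were named by rule, per cluster and comparison, as the 3 tiles with the largest difference in each direction among those called (or among all tiles where fewer than 3 were called) and the 3 highest and 3 lowest tiles; the text gives a selection of these, and all genes with at least 3 members in the RefSeq promoter window. Genes were placed by CpG spacing, with at least 3 matched CpGs, no listed CpG unaccounted for and a lead of at least 3 matches over any other place; these limits, the near and far windows and the printed sequences were set after the levels had been seen. The members and the gene list were chosen with earlier results of these data known. The sequences and starts came from RefSeq (GRCh38.p14), whose coordinates were not converted to hg19. Software was Python 3.11.15, numpy 2.4.6, pandas 2.3.3, scipy 1.17.1 and matplotlib 3.10.9. Alternatives were other read minimums, read weighting, each library's own cytosines, filling in, fewer or scaled reads, a difference of 50 points and at least 10 cytosines per tile.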

Additional observations from a re-analysis of the deposited data

Results flagged for a closer look

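In the alpha cluster the KO minus WT difference had opposite signs in the culture states, and the naive one also holds a difference in medium. KO primed minus WT primed was -0.885 points over the cluster and KO naive minus WT naive was 3.25 points. Over the alternate array alone, 140.16 to 140.28 Mb, these were -0.922 and 3.41 points. The opposite signs over the cluster depended on the read minimum, since with at least 20 reads KO primed minus WT primed was 1.08 points and KO naive minus WT naive 1.96 points. In the middle part of alpha, 140.28 to 140.35 Mb, with 5 cytosines, KO primed minus WT primed was 3.89 points and KO naive minus WT naive was -13.2 points. The difference between the states was not tested, because each group had 1 library.

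At the gamma tile within the near window of PCDHGC3, chr5:140856001-140857000, the change between the states ran in opposite directions in the genotypes. KO naive minus KO primed was -19.5 points and WT naive minus WT primed was 14.9 points over 19 cytosines. This difference was not tested either, and KO naive and WT naive also differ in medium. The cytosines lie 586 to 730 bp after the PCDHGC3 start, with 10 to 21 reads each in WT naive and 10 to 18 in WT primed. Neighbours may share reads, so they are not separate measurements.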

How the results depend on the processing

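The direction of the naive against primed differences was the same in both clusters under every setting tried, and their size moved as follows. KO naive minus KO primed and WT naive minus WT primed were -40.7 and -41.6 points in alpha and -33.3 and -42.4 points in gamma with at least 20 reads. With at least 5 reads, KO naive minus KO primed was -34.1 points in alpha and -33.4 points in gamma, and WT naive minus WT primed -39.1 points in gamma. Weighted by reads, the alpha differences were -38.0 and -42.9 points. With each library's own cytosines, KO naive minus KO primed was -28.9 points in alpha and -29.8 points in gamma, and WT naive minus WT primed -37.2 points in gamma. Filled in, the alpha differences were -34.0 and -39.2 points. Leaving out cytosines over 100 reads changed nothing, since no member averaged that many.

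The differences between the KO and WT libraries were less stable, and those in naive cells also hold a difference in medium. KO primed minus WT primed in gamma turned to -0.0859 points with at least 5 reads, -1.13 with at least 20, -0.31 weighted by reads and -1.72 with each library's own cytosines; in alpha it turned to 1.08 with at least 20 reads and was -2.63 weighted, -2.44 with own cytosines and -1.96 filled in. KO naive minus WT naive in alpha was 5.94 points with at least 5 reads, 1.96 with at least 20, 2.27 weighted and 9.01 with own cytosines; in gamma it was 7.92 with at least 20 reads and 4.84 weighted, and with 5.55 at 5 reads and 5.63 with own cytosines it fell below alpha. The alpha tile at 140237 kb turned from -12.9 points on 20 cytosines to 23.4 points on 65 with at least 5 reads. The cause was not tested.

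Counts of calls moved with the number of tiles and reads left. With at least 20 reads, 19 alpha and 11 gamma tiles remained, of which 17 and 7 were lower in KO naive and 14 and 10 in WT naive. At this minimum 0 alpha tiles were called between the primed libraries and 0 gamma tiles between the naive libraries. With at least 10 cytosines per tile, 17 of 28 gamma tiles were lower in KO naive. Between KO and WT, 0 alpha tiles differed in either state, and 0 gamma tiles in primed cells. With at least 5 reads, 2 alpha tiles differed between KO and WT in each state. At 50 points, 180 alpha and 210 gamma cytosines were lower in KO naive, and 6 alpha and 7 gamma cytosines differed between primed genotypes. With 10 reads drawn per cytosine, 43 alpha and 56 gamma cytosines were lower in KO naive, 92 and 81 in WT naive, and 0 differed between KO and WT in either cluster and state. With reads divided by the variance ratio between strands, these counts were 5, 3, 5 and 4, and again 0, with fewer reads by construction. The ratio was 3.13 to 4.74. It was taken over the CpGs at 20 to 80% among 33680 read on both strands. These were 26167 in KO naive, 25600 in WT naive, 16605 in KO primed and 17099 in WT primed. With reads so divided, the unadjusted p by Fisher's exact test was under 0.05 at 4 and 3 cytosines between the primed libraries and 8 and 5 between the naive ones. With 10 reads drawn these were 15, 18, 22 and 31.

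No value for the constant against the variable end could be had from tiles of at least 5 cytosines under any setting. Near levels were below far levels in 22, 20, 21 and 19 of 23 genes with at least 5 reads and in 18, 18, 17 and 15 of 19 filled in, chosen after seeing the data. No paired analysis was possible because the groups share 1 replicate number, with 1 library each; the naive against primed difference is given for each genotype.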
